A study of Mus musculus with 41 samples.

Results

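Claudins of the fetal and adult mouse small intestine were followed through 10 genes, Cldn1, Cldn2, Cldn3, Cldn4, Cldn6, Cldn7, Cldn8, Cldn12, Cldn15 and Cldn23. They were taken by symbol from the 23366 genes of the deposited count tables, and all 10 had a row in every library. The tables held 25 claudin-named genes in all. The 10 did not all belong to the epithelium, since Cldn1 reached at most 1.39 CPM (counts of the gene per M gene counts of the library, M for mega) in any epithelial library.

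Claudins are membrane proteins with 4 passes through the membrane that join neighbouring epithelial cells in the tight junction, where the mix of family members sets which ions and how much water pass between the cells. Cldn1, Cldn3, Cldn4, Cldn7 and Cldn8 are mostly described as sealing members, while Cldn2 and Cldn15 form pores for small cations and, in the intestine, take part in the sodium supply that nutrient uptake needs. Cldn6 is best known from embryonic epithelia, Cldn12 is a member without the usual tail that binds scaffold proteins, and Cldn23 is a less studied member of barrier epithelia.

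The study asked how Id2, an inhibitor of E-protein transcription factors that bind E-box sequences, acts on the first Lgr5+ cells of the gut. RNA-seq was run on 41 libraries in 15 groups, each made from 250 cells sorted by flow cytometry, all from mice of mixed C57BL/6 and CD1 strain. Lgr5+ means cells bearing the Lgr5-EGFP reporter of the intestinal stem cell gene Lgr5, EpCAM+ means cells with the epithelial surface protein EpCAM, and mesenchyme was the EpCAM-negative fraction. Id2KO stands for loss of Id2, and the labels describe neither the allele nor any Cre driver.

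At embryonic day 11.5 (E11.5), with 1 embryo behind each library, there were 3 libraries each of Lgr5+ EpCAM+ Id2KO cells, EpCAM+ Id2KO cells, Id2KO mesenchyme, EpCAM+ wild-type cells and wild-type mesenchyme. At E13.5, with pools of 6 to 12 embryos, there were 4 libraries each of Lgr5+ EpCAM+ cells and of EpCAM+ cells, for which the labels name no Id2 genotype. Adult cells came from postnatal day 60. They comprised 4 libraries of Lgr5+ stem cells with neither genotype nor gut segment labelled, and pairs of libraries of Lgr5+ stem cells from the anterior, middle and posterior part of the small intestine of Id2KO and of wild-type mice. A further pair held Tomato+ Lgr5+ cells of the posterior part of Id2KO mice, and the labels do not say what the Tomato mark stands for. The series' design text calls the replicates biological, and p-values measure the spread between these libraries.

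The depth was 31.7 to 38.9 M gene counts per E11.5 library and 30.0 to 51.2 M per E13.5 library. Adult Lgr5+ libraries held 28.2 to 31.1 M, and segment libraries 13.6 to 20.3 M. At E11.5, Id2 averaged 167 ± 13.3 CPM in EpCAM+ Id2KO cells and 5961 ± 646 CPM in EpCAM+ wild-type cells (SD, n = 3 each). In the adult segments Id2 did not follow the label: it averaged 197 ± 2.64 CPM in anterior libraries labelled Id2KO and 83.8 ± 28 CPM in anterior wild-type libraries (SD, n = 2 each). That difference was 1.23 ± 0.19 on the log2 scale (SE), with an adjusted p of 0.0053 in edgeR's quasi-likelihood test with Benjamini-Hochberg adjustment, which was the test throughout. Id2 was also higher in the posterior libraries labelled Id2KO, by 0.87 ± 0.19 (adjusted p = 0.02), a call lost without any 1 of the 4 posterior libraries (adjusted p = 0.061 to 0.13). In the middle part Id2 had 113 and 98.9 CPM in libraries labelled Id2KO and 101 and 125 CPM in wild type (-0.13, adjusted p = 0.78). The anterior call was lost with the 2 groups fitted alone (1.25, adjusted p = 0.14). The 3 wild-type EpCAM+ libraries of E11.5 held both the Y-linked Ddx3y, at 18.0 to 25.8 CPM, and Xist, at 251 to 575 CPM, although 1 embryo is stated for each.

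**Figure D1:**
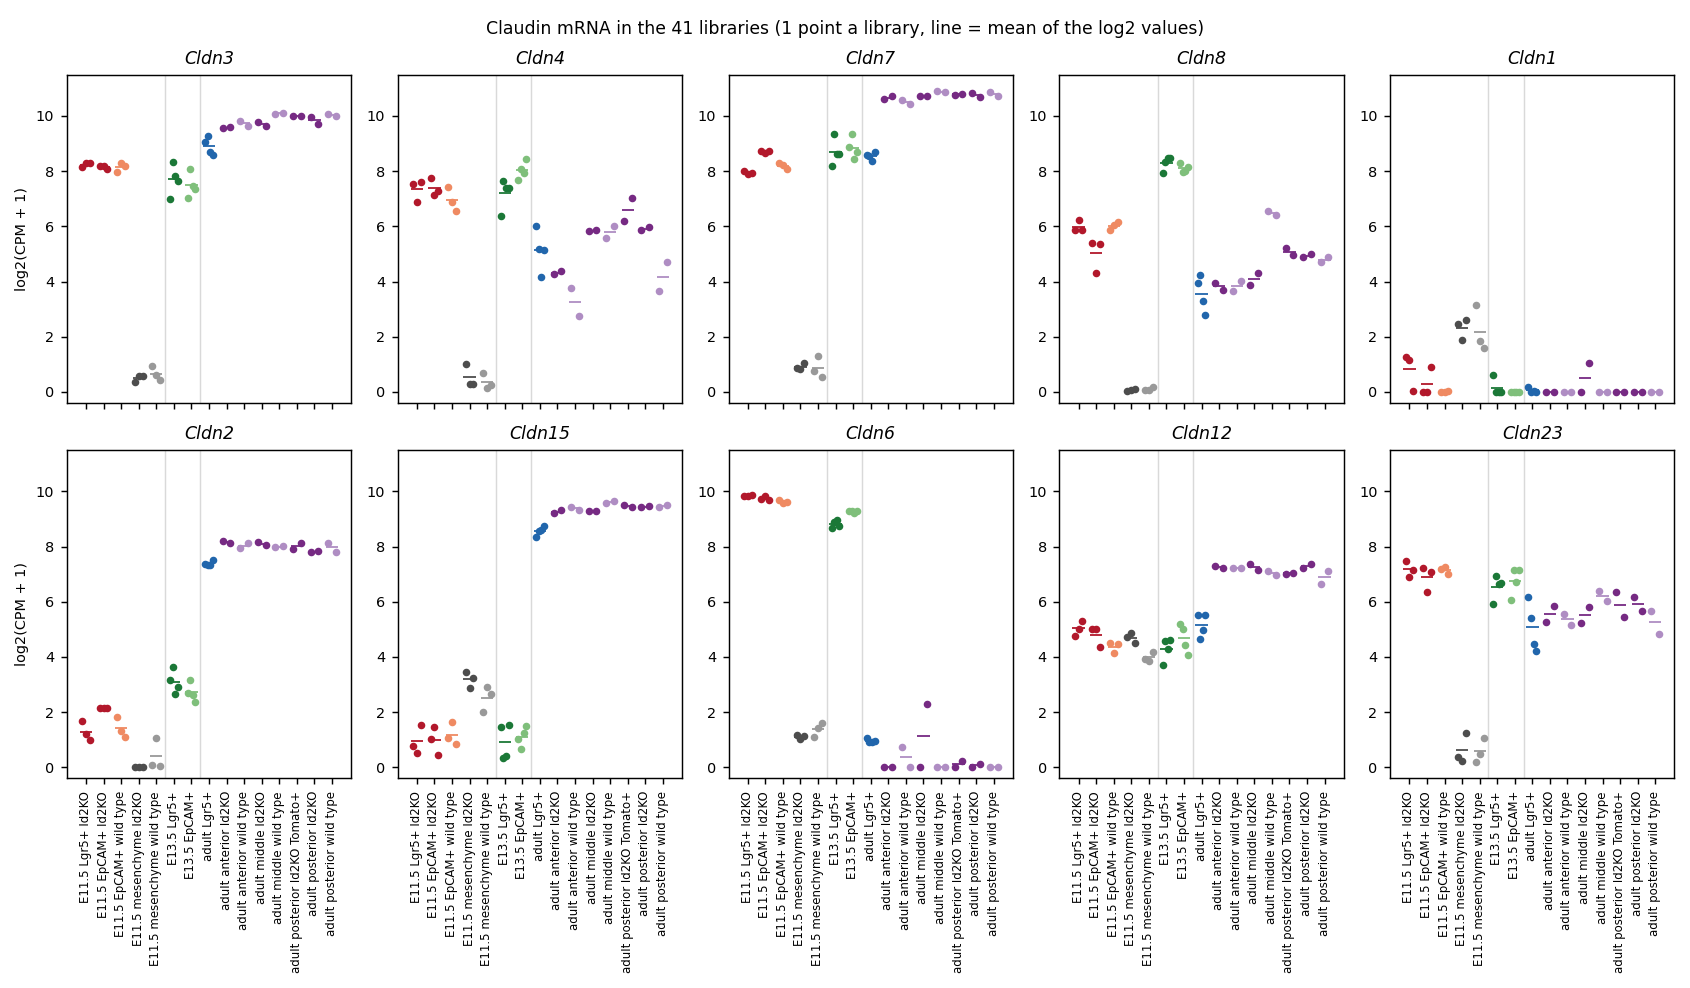
Level of each of the 10 claudins in every library, as log2(CPM + 1), with the 15 groups along the horizontal axis and 1 point for each library. Cldn6 is high in all fetal epithelial groups and near 0 in adult ones, while Cldn2 and Cldn15 show the opposite placing.

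Set side by side per kilobase of exon, 3 of the 10 claudins made up most of their summed level in every epithelial group. In fetal groups these were Cldn6, Cldn3 and Cldn7, except that Cldn4 stood just ahead of Cldn3 in E13.5 EpCAM+ cells. In adult groups they were Cldn3, Cldn7 and Cldn15. In fetal epithelium Cldn6 stood first. At E11.5 it averaged 534 ± 8.72 CPM per kb in Lgr5+ Id2KO cells, 499 ± 27.0 CPM per kb in EpCAM+ Id2KO cells and 464 ± 17.4 CPM per kb in EpCAM+ wild-type cells (SD, n = 3 each). These were shares of 48.4%, 44.7% and 45.5% of the summed level of the 10 genes per kb. At E13.5 Cldn6 still led, with a mean of 263 ± 24.5 CPM per kb in Lgr5+ cells and 360 ± 7.35 CPM per kb in EpCAM+ cells (SD, n = 4 each), but its share was smaller, at 29.0% and 33.6%. Cldn7, Cldn3, Cldn4 and Cldn8 filled the space beneath it.

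In the adult the order was another one. Cldn3 led the 4 adult Lgr5+ libraries, with 388 ± 87.1 CPM per kb and 44.6% of the summed level per kb, ahead of Cldn7 with 22.2% and Cldn15 with 21.0%. In the 7 segment groups Cldn7 led instead, with group means of 39.5% to 44.1% of the summed level per kb, then Cldn3 with 31.9% to 37.2% and Cldn15 with 14.5% to 16.8%. The summed level of the 10 genes was 1782 to 2411 CPM per kb in the segment libraries and 761 to 964 CPM per kb in the adult Lgr5+ group. Those sets differed in depth and in the share of reads counted to no gene (20.5% to 25.9% in the segments, 52.8% to 59.7% in the adult Lgr5+ group), so cells and library set cannot be told apart, and no test was made between them.

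**Figure D2:**
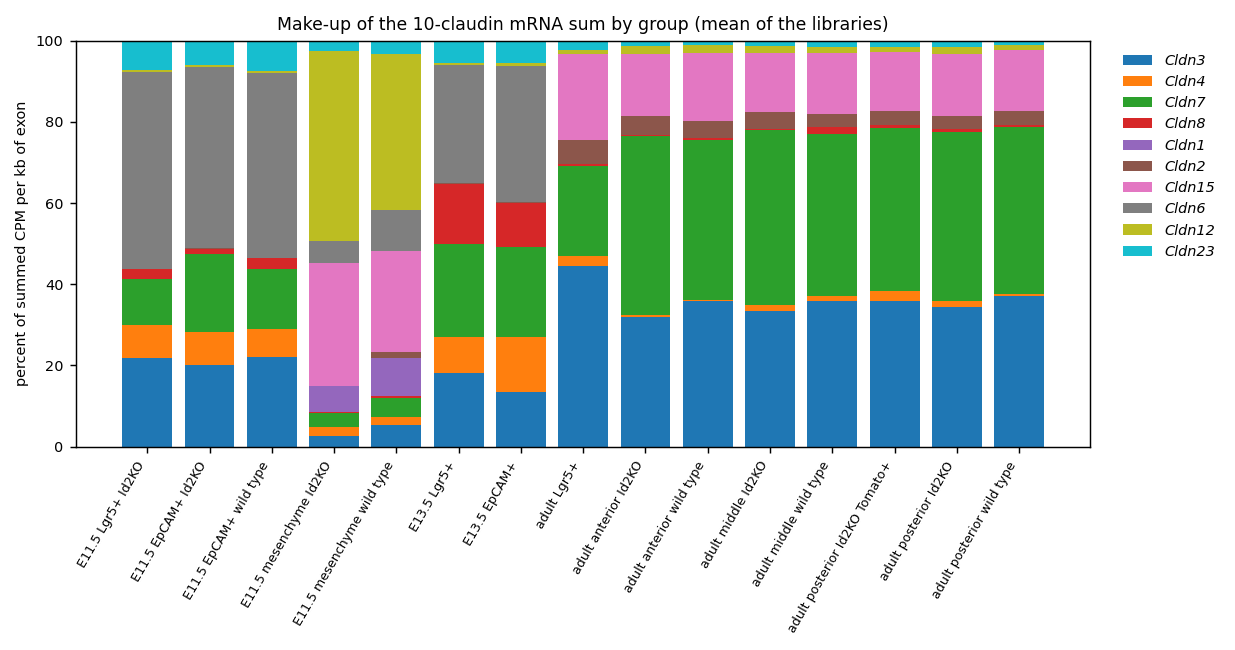
Share of each claudin in the summed level of the 10 genes, in percent of the summed CPM per kb of exon, as the mean over the libraries of each of the 15 groups. Cldn6 takes the largest share in the fetal epithelial groups, and Cldn3, Cldn7 and Cldn15 fill most of the adult bars.

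In E11.5 epithelium, set against the mesenchyme beneath it, 6 of the 10 claudins were higher in wild-type cells and 2 were lower. The higher ones were Cldn3, Cldn4, Cldn6, Cldn7, Cldn8 and Cldn23, and the lower ones were Cldn1 and Cldn15. Of 15680 genes tested, 11.5% were called higher and 10.7% lower at an adjusted p under 0.05 (22.2% in either direction). The median log2 fold change was 7.78 over the 10 claudins and 0.01 over all genes. Since cells were sorted on EpCAM, and bulk libraries were made from them, fewer cells of a type and less RNA per cell cannot be told apart here or below. The mesenchymal fraction also held red cell messages. The 6 erythroid markers, with Hba-a1 at 0 throughout, summed to 222100 to 269000 CPM in wild-type mesenchyme and 132.7 to 170 CPM in wild-type EpCAM+ libraries. In Id2KO the sums were 24740 to 59620 CPM in mesenchyme and 89.4 to 110.8 CPM in EpCAM+ libraries. Their part in the claudin differences was not tested.

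The gap was wide for each of the 6 higher genes, at 7.58 to 9.11 on the log2 scale. Cldn6 averaged 798 ± 29.9 CPM in wild-type EpCAM+ cells and 1.63 ± 0.439 CPM in wild-type mesenchyme (SD, n = 3 each; 8.52 ± 0.23, SE, adjusted p = 1.8e-11, edgeR). Among the sealing members, Cldn3 had 252, 312 and 289 CPM in wild-type EpCAM+ libraries, against 0.923, 0.516 and 0.363 CPM in wild-type mesenchyme, a log2 fold change of 8.45 ± 0.32 (SE, adjusted p = 4.8e-10, edgeR). Cldn7 had 311, 298 and 272 CPM in wild-type EpCAM+ libraries and 0.672, 1.46 and 0.447 CPM in wild-type mesenchyme (7.98 ± 0.36, adjusted p = 2.3e-09, edgeR). Neither Cldn3 nor Cldn7 passed 1.5 CPM in any mesenchymal library, and the groups lay far apart. Cldn8, a sealing member known from colon and kidney tubules, had 57.7, 65.0 and 70.7 CPM in wild-type EpCAM+ cells against 0.056, 0.0573 and 0.14 CPM in mesenchyme (9.11 ± 0.51, adjusted p = 2e-08, edgeR).

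Cldn1 and Cldn15 ran the other way. Cldn1, a sealing member best known from skin, had 0, 0 and 0.0293 CPM in wild-type EpCAM+ libraries and 7.86, 2.58 and 1.98 CPM in wild-type mesenchyme, a log2 fold change of -8.66 ± 2.02 (SE, adjusted p = 0.0067, edgeR). The epithelial value rests on 1 read in 3 libraries. Cldn15 had 1.07, 2.13 and 0.819 CPM in wild-type EpCAM+ libraries and 3.02, 6.5 and 5.31 CPM in wild-type mesenchyme (-2.31 ± 0.69, adjusted p = 0.026, edgeR). The groups did not overlap, but with libraries scaled to plain totals the Cldn15 difference was -1.88 with an adjusted p of 0.053, and the median of all genes was then 0.43. Cldn15 also missed the threshold without 4 of the 6 libraries in turn (adjusted p = 0.06 to 0.1). The 2 members not called were Cldn12, with means of 19.8 CPM in EpCAM+ and 14.98 CPM in mesenchyme libraries (-0.02 ± 0.25 after TMM scaling, 0.4 with plain totals, adjusted p = 0.98, edgeR), and Cldn2 (1.65 ± 1.30, adjusted p = 0.42, edgeR). Cldn2 had 2.56, 1.5 and 1.17 CPM in wild-type EpCAM+ libraries and 0.056, 1.12 and 0.0279 CPM in wild-type mesenchyme, and without the second mesenchyme library its difference was 4.86 (adjusted p = 0.032).

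Id2KO epithelium, set against Id2KO mesenchyme, gave 7 claudins higher and 1 lower, where 13.2% of the 15680 genes were called higher and 10.8% lower (24% in either direction). The same 6 genes were higher as in wild type, by 7.61 to 9.5 on the log2 scale. The seventh was Cldn2, with 3.49, 3.49 and 3.46 CPM in Id2KO EpCAM+ libraries and 0 counts in all 3 Id2KO mesenchyme libraries, which is at least 36.8-fold higher when 3 counts per library are taken as the floor. With Cldn2 at that bound, the median log2 fold change of the 10 claudins was 8.02. Cldn15 was lower, with 1.06, 1.73 and 0.359 CPM in Id2KO EpCAM+ libraries and 9.90, 6.39 and 8.53 CPM in Id2KO mesenchyme (-3.03 ± 0.71, adjusted p = 0.0065, edgeR). Cldn1 had 0, 0 and 0.857 CPM in Id2KO EpCAM+ libraries and 4.44, 2.72 and 5.02 CPM in Id2KO mesenchyme (-3.82 ± 1.53, adjusted p = 0.087 in edgeR and 0.028 in DESeq2). The third EpCAM+ library held 31 reads of it and the others none, and without that library Cldn1 was called in edgeR as well (-10.09, adjusted p = 0.0016), a value that depends on the prior count.

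Between Id2KO and wild-type mesenchyme none of the tested members was called. Of 7 members tested there, 0 passed in edgeR's quasi-likelihood test, 0 had an unadjusted p under 0.05 and 0 passed in DESeq2, where edgeR called 0.852% of 13734 genes lower and 0.0291% higher (0.881% in either direction). Cldn12 had 25.1, 28.5 and 21.7 CPM in Id2KO mesenchyme and 14.2, 13.5 and 17.3 CPM in wild-type mesenchyme. These ranges did not overlap, yet the scaled difference was 0.38 ± 0.26 (SE, adjusted p = 0.9, edgeR). Erythroid messages stood beside it: the 6 erythroid markers summed to 24740 to 59620 CPM in Id2KO mesenchyme and to 222100 to 269000 CPM in wild-type mesenchyme, with 1 marker at 0 in both groups, and their part was not tested. A claudin outside the 10, Cldn13, was called, with 12.4 ± 6.17 CPM in Id2KO mesenchyme and 55.8 ± 4.51 CPM in wild-type mesenchyme (SD, n = 3 each; -2.52 ± 0.40, SE, adjusted p = 0.01, edgeR).

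Partners of the claudins in the junction were called in both directions. Of 26 tight junction partners tested in wild type, 14 were higher in epithelium and 5 lower, with a median log2 fold change of 1.16. Occludin, Ocln, the other 4-pass protein of the junction, averaged 150 ± 20.5 CPM in EpCAM+ cells and 0.244 ± 0.112 CPM in mesenchyme (SD, n = 3 each; 8.82 ± 0.37, SE, adjusted p = 1.1e-09, edgeR). The scaffold Cgnl1 (paracingulin) ran the opposite way, with 54.8 ± 1.62 CPM in EpCAM+ cells and 207 ± 23.2 CPM in mesenchyme (SD, n = 3 each; -2.34 ± 0.21, SE, adjusted p = 2.9e-06, edgeR). All 6 genes of the EpCAM and matriptase list were higher in epithelium, which the sort on EpCAM itself touches.

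In the EpCAM+ sort of E11.5, loss of Id2 went with more Cldn7. Cldn7, which binds EpCAM along the lateral membrane and is needed for the integrity of the neonatal mouse intestine, had 421, 403 and 428 CPM in EpCAM+ Id2KO libraries and 311, 298 and 272 CPM in EpCAM+ wild-type libraries. Every Id2KO library lay above every wild-type library. The log2 fold change was 0.55 ± 0.11 (SE, adjusted p = 0.036, edgeR, n = 3 each), and Cldn7 was the 1 claudin of 10 called, where 0.871% of 15153 genes were called higher and 0.785% lower (1.66% in either direction). The median was 0.31 over the 10 claudins and 0.01 over all genes. This call is a narrow one. It was lost when the 2 groups were fitted alone (0.54, adjusted p = 0.14), without 8 of the 9 libraries of the fit in turn (adjusted p = 0.059 to 0.17) and without the 3 libraries with over 100 CPM of the macrophage gene C1qa (0.63, adjusted p = 0.1). Several marker lists lay apart between the same groups: the 6 epithelial markers summed to 5188 to 6091 CPM in EpCAM+ Id2KO libraries and 4277 to 5001 CPM in EpCAM+ wild-type libraries, and the 6 stem cell markers to 257 to 348 CPM in EpCAM+ Id2KO libraries and 23.8 to 32.9 CPM in EpCAM+ wild-type ones. The 8 mesenchymal markers summed to 52.6 to 153 CPM in EpCAM+ Id2KO libraries and 202 to 238 CPM in EpCAM+ wild-type libraries, and the 6 erythroid markers to 89.4 to 110.8 CPM in EpCAM+ Id2KO libraries and 133 CPM or more in each EpCAM+ wild-type library, with Hba-a1 at 0 throughout. The 6 goblet markers, with Clca3 at 0 throughout, summed to 99.7 to 149 CPM in EpCAM+ Id2KO libraries and 51.8 to 71.2 CPM in EpCAM+ wild-type ones, and the 5 mesothelial markers, which share Krt19 with the epithelial list, to 620 to 829 CPM in EpCAM+ Id2KO libraries and 373 to 485 CPM in EpCAM+ wild-type ones. Their part was not tested.

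Cldn8 stood on the other side, with 41.5, 19.0 and 40.4 CPM in EpCAM+ Id2KO libraries and 57.7, 65.0 and 70.7 CPM in EpCAM+ wild-type libraries. The ranges did not overlap, but the difference of -0.89 ± 0.28 had an adjusted p of 0.18 in edgeR and of 0.047 in DESeq2. Cldn2 likewise had 3.49, 3.49 and 3.46 CPM in EpCAM+ Id2KO libraries and 2.56, 1.5 and 1.17 CPM in EpCAM+ wild-type libraries, a difference that did not pass (1.05 ± 0.64, adjusted p = 0.55, edgeR). Cldn2 lies on the X chromosome, and the wild-type libraries carried messages of both sexes. Cldn6, the main claudin of these cells, differed by 0.15 ± 0.10 with a 95% interval of -0.08 to 0.37.

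None of the 26 tight junction partners, 15 adherens junction genes or 6 EpCAM and matriptase genes tested was called between EpCAM+ Id2KO and wild-type cells. Among 22 transcription factors linked to epithelial junction genes, 5 were higher and 0 lower. Snai2, a repressor of epithelial genes that binds E-boxes, averaged 21.3 ± 4.45 CPM in EpCAM+ Id2KO cells and 4.01 ± 1.90 CPM in EpCAM+ wild-type cells (SD, n = 3 each; 2.45 ± 0.34, SE, adjusted p = 0.0039, edgeR). Klf5, an activator of epithelial proliferation, averaged 206 ± 12.8 CPM in EpCAM+ Id2KO cells and 125 ± 2.13 CPM in EpCAM+ wild-type cells (0.76 ± 0.16, adjusted p = 0.037, edgeR). The effect of Id2 loss was also tested for a difference between EpCAM+ cells and mesenchyme, where 0.421% of 15680 genes were called higher and 0.172% lower (0.593% in either direction) and 0 of 10 claudins were called, 3 of them with an unadjusted p under 0.05.

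Lgr5+ Id2KO cells of E11.5 held less Cldn7 than EpCAM+ Id2KO cells. There was no wild-type Lgr5+ group at this stage, so this compares sorts within Id2KO and not genotypes. Cldn7 had 253, 236 and 242 CPM in Lgr5+ Id2KO libraries and 421, 403 and 428 CPM in EpCAM+ Id2KO libraries, a log2 fold change of -0.81 ± 0.11 (SE, adjusted p = 0.0032, edgeR, n = 3 each). It was the 1 claudin of 10 called, where 1.56% of 15153 genes were called lower and 1.58% higher (3.14% in either direction), with a median of 0.06 over the claudins and -0.01 over all genes. No library of one group reached the other. Cldn8 was placed the other way, with 57.1, 74.2 and 57.8 CPM in Lgr5+ Id2KO libraries and 41.5, 19.0 and 40.4 CPM in EpCAM+ Id2KO libraries, but the difference did not pass (0.86 ± 0.28, adjusted p = 0.15, edgeR). This comparison and that of EpCAM+ Id2KO with EpCAM+ wild-type cells share the EpCAM+ Id2KO libraries, so they are not independent of each other. For Cldn7, every Lgr5+ Id2KO library also lay below every EpCAM+ wild-type library (272.2 to 310.5 CPM), a difference that was not tested.

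Several features moved beside Cldn7 between these sorts. The 8 mesenchymal markers summed to 602 to 709 CPM in Lgr5+ Id2KO libraries and 52.6 to 153 CPM in EpCAM+ Id2KO libraries, and nearly all of that sum was the filament gene Vim, at 571 to 689 CPM in Lgr5+ Id2KO libraries and 43.1 to 143 CPM in EpCAM+ Id2KO libraries. The 4 hepatocyte markers summed to 361 to 463 CPM in Lgr5+ Id2KO libraries and 809 to 1744 CPM in EpCAM+ Id2KO libraries, and no marker of either list was at 0 throughout. Snai2 averaged 135.3 ± 19.2 CPM in Lgr5+ Id2KO cells and 21.3 ± 4.45 CPM in EpCAM+ Id2KO cells (SD, n = 3 each). The anterior gut factor Gata4 averaged 47.0 ± 6.90 CPM in Lgr5+ Id2KO cells and 103 ± 14 CPM in EpCAM+ Id2KO cells (SD, n = 3 each). The 6 epithelial markers summed to 3966 to 4334 CPM in Lgr5+ Id2KO libraries and 5188 to 6091 CPM in EpCAM+ Id2KO libraries. For the 6 goblet markers the sums were 30.4 to 38.3 CPM and 99.7 to 149 CPM in that order, with Clca3 at 0 throughout. The mesothelial, endothelial and enteroendocrine sums were also lower in every Lgr5+ Id2KO library. The stem cell sum was higher in each. The part of these differences in the Cldn7 result was not tested.

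Among the other junction genes of this comparison, F11r (JAM-A), an adhesion protein that helps to seed the junction, was higher in Lgr5+ Id2KO cells, with 766 ± 32.1 CPM against 476 ± 19.0 CPM in EpCAM+ Id2KO cells (SD, n = 3 each; 0.65 ± 0.11, SE, adjusted p = 0.0074, edgeR). The scaffold Tjp3 was lower, with 4.69 ± 1.91 CPM in Lgr5+ Id2KO cells and 17.9 ± 6.71 CPM in EpCAM+ Id2KO cells (-1.95 ± 0.36, adjusted p = 0.012, edgeR). The other 24 of the 26 partners tested were not called. Cldn9, a neighbour of Cldn6 that runs towards it on the opposite strand, was lower in Lgr5+ Id2KO cells, with 20.3 ± 3.09 CPM against 44.0 ± 8.39 CPM in EpCAM+ Id2KO cells (-1.15 ± 0.23, adjusted p = 0.021, edgeR). The strand setting of the counts is not given in the sources used here, so reads of Cldn6 and Cldn9 where the genes meet cannot be told apart.

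**Figure D3:**
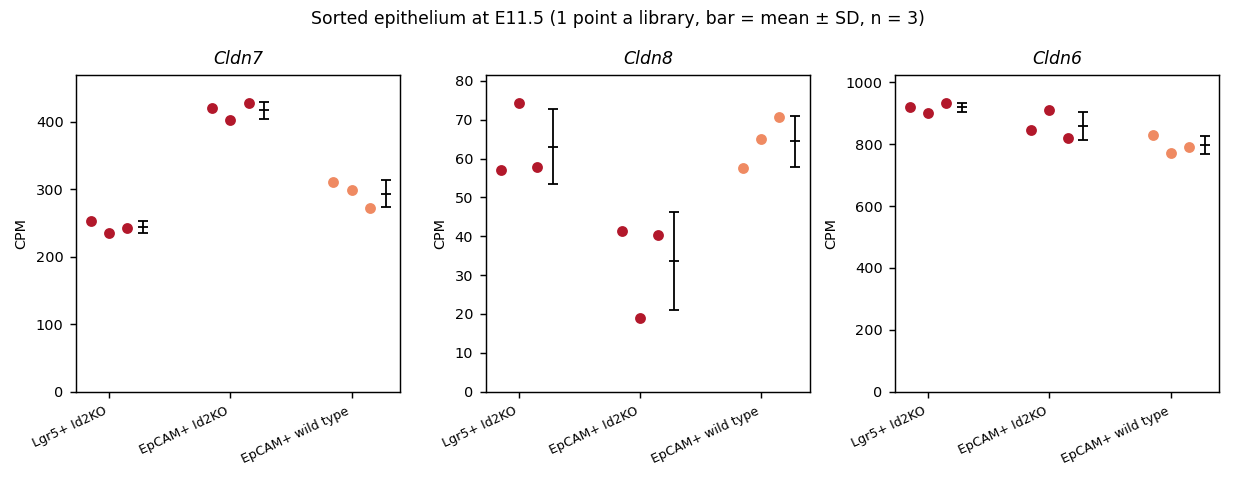
Levels of Cldn7, Cldn8 and Cldn6 in E11.5 epithelium in CPM, with 1 point for each library and the mean ± SD (n = 3) of Lgr5+ Id2KO, EpCAM+ Id2KO and EpCAM+ wild-type cells. Cldn7 is highest in EpCAM+ Id2KO cells, Cldn8 is lowest there, and Cldn6 lies between 772 and 932 CPM in all 9 libraries.

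EpCAM+ epithelium of E13.5 held more Cldn8, Cldn4, Cldn7 and Cldn2 than that of E11.5. Of these, Cldn2 is a pore member, and the sealing member Cldn3 was not called. Of 9 claudins tested in EpCAM+ cells, 4 were higher at E13.5 and 0 lower, where 19.3% of 14467 genes were called higher and 21.1% lower (40.4% in either direction). The median log2 fold change was 0.57 over the claudins and -0.04 over all genes. The share of claudins called in either direction thus lay near that of all genes. The E13.5 libraries came from pools, carried no genotype label and were not paired with those of E11.5. The share of reads counted to no gene was 45.7% to 51.6% in E13.5 libraries and 30.9% to 42.2% in E11.5 libraries. Stage and library set therefore cannot be told apart here. Marker lists of other cells lay apart as well, and their part in the claudin values was not tested. Most of the mesenchymal sum given below was Vim, at 69.0 to 143 CPM in E13.5 EpCAM+ and 180 to 207 CPM in E11.5 wild-type EpCAM+ libraries. The 6 enterocyte markers summed to 325 to 602 CPM in E13.5 EpCAM+ libraries and 109 to 165 CPM in E11.5 wild-type EpCAM+ libraries, and the 6 stem cell markers to 49.8 to 56.3 CPM at E13.5 and 23.8 to 32.9 CPM at E11.5. Lower at E13.5 were the sums of the epithelial markers (2381 to 3026 CPM at E13.5, 4277 to 5001 CPM at E11.5), the 4 hepatocyte markers (662 to 757 CPM at E13.5, with Alb at 0, and 940 to 1353 CPM at E11.5) and the mesenchymal markers (84.3 to 167 CPM at E13.5, 202 to 238 CPM at E11.5). So were those of the erythroid markers (4.38 to 11.2 CPM at E13.5, 133 CPM or more at E11.5, with Hba-a1 at 0 at both), the macrophage markers (4.57 to 8.81 CPM at E13.5, with C1qa at 0, and 69.5 to 628 CPM at E11.5) and the endothelial markers (5.16 to 18.4 CPM at E13.5, with Emcn at 0, and 28.3 to 98.2 CPM at E11.5).

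Cldn8 had the largest log2 fold change of the 9. It had 316, 252, 255 and 279 CPM in E13.5 EpCAM+ libraries and 57.7, 65.0 and 70.7 CPM in E11.5 wild-type EpCAM+ libraries, a log2 fold change of 2.29 ± 0.17 (SE, adjusted p = 7.1e-07, edgeR). The lowest E13.5 library held over 3 times the CPM of the highest E11.5 library. Cldn4, a sealing claudin that limits sodium passage, had 204, 272, 246 and 350 CPM in E13.5 EpCAM+ libraries and 173, 116 and 92.1 CPM in E11.5 wild-type EpCAM+ libraries (1.29 ± 0.23, adjusted p = 0.0007, edgeR). The pore gene Cldn2 had 5.42, 8.0, 5.17 and 4.23 CPM in E13.5 EpCAM+ libraries and 2.56, 1.5 and 1.17 CPM in E11.5 wild-type EpCAM+ libraries (1.91 ± 0.52, adjusted p = 0.011, edgeR). Both genes kept the stages apart in every library, Cldn2 at a level that was still a small part of its adult one.

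Cldn7 had 463, 649, 349 and 410 CPM in E13.5 EpCAM+ libraries and 311, 298 and 272 CPM in E11.5 wild-type EpCAM+ libraries (0.86 ± 0.18, adjusted p = 0.0024, edgeR). Its E13.5 libraries spread widely, yet all lay above those of E11.5. Cldn6 had 623, 622, 601 and 630 CPM in E13.5 EpCAM+ libraries and 831, 772 and 792 CPM in E11.5 wild-type EpCAM+ libraries. In CPM every E13.5 library lay below, but the scaled difference was -0.17 ± 0.13 (adjusted p = 0.34, edgeR). With plain totals it was -0.37 (adjusted p = 0.027), and that of Cldn3 was -0.63 (adjusted p = 0.037) instead of -0.44 ± 0.21 (adjusted p = 0.12). Under plain totals the median of all genes was -0.24, and 35.5% of the calls were higher, where the scaled fit had 47.7%. Cldn3 was also called lower without the second E13.5 library (-0.64, adjusted p = 0.016), and Cldn12 higher without the fourth (0.74, adjusted p = 0.039). Cldn15 was at 1.86 CPM or less in E13.5 EpCAM+ and 2.13 CPM or less in E11.5 wild-type EpCAM+ libraries, and Cldn23 overlapped between the stages (-0.13 ± 0.23, adjusted p = 0.68, edgeR). Cldn1 did not pass the filter on low counts from E13.5 on.

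Junction genes outside the family showed a mixed picture over the same interval. Of 25 tight junction partners tested, 7 were higher and 6 lower at E13.5, with a median of 0.03. Cingulin, Cgn, which ties the junction to the cytoskeleton, averaged 332 ± 33.0 CPM at E13.5 and 42.2 ± 1.69 CPM at E11.5 (SD, n = 4 and 3; 3.18 ± 0.17, SE, adjusted p = 5.1e-08, edgeR). Ocln averaged 385 ± 71.6 CPM at E13.5 and 150 ± 20.5 CPM at E11.5 (1.57 ± 0.18, adjusted p = 2.5e-05, edgeR). Of 15 adherens junction genes, 9 were higher and 2 lower, among the higher ones E-cadherin, Cdh1, with 260 ± 21.0 CPM at E13.5 and 114 ± 16.5 CPM at E11.5 (1.39 ± 0.15, adjusted p = 1.3e-05, edgeR). Epcam itself was lower at E13.5, by 0.52 ± 0.14 on the log2 scale (adjusted p = 0.0089, edgeR).

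Within E13.5, Lgr5+ cells and the whole EpCAM+ fraction gave 0 calls among 9 claudins tested, where 0.958% of 13355 genes were called lower and 0.794% higher (1.75% in either direction). By DESeq2, 2 claudins were called, and 2 had an unadjusted p under 0.05 in edgeR. Cldn4 had 81.9, 198, 165 and 166 CPM in Lgr5+ libraries and 204, 272, 246 and 350 CPM in EpCAM+ libraries (-0.80 ± 0.25, adjusted p = 0.18, edgeR). The highest Lgr5+ library lay just under the lowest EpCAM+ one. The DESeq2 value for Cldn4 was -0.80 with an adjusted p of 0.03. With a replicate block Cldn4 was called in edgeR as well (-0.85, adjusted p = 0.024). Cldn6 had 406, 477, 498 and 429 CPM in Lgr5+ libraries and 623, 622, 601 and 630 CPM in EpCAM+ libraries (-0.44 ± 0.13, adjusted p = 0.15 in edgeR and 0.034 in DESeq2). Cldn8 and Cldn2 overlapped between the sorts. Other markers differed here too. Gata4, a marker of position, averaged 9.0 ± 3.76 CPM in Lgr5+ cells and 66.8 ± 10.9 CPM in EpCAM+ cells (SD, n = 4 each). The 8 mesenchymal markers summed to 334 to 479 CPM in Lgr5+ libraries and 84.3 to 167 CPM in EpCAM+ libraries. Most of that sum was Vim, at 306 to 452 CPM in Lgr5+ libraries and 69.0 to 143 CPM in EpCAM+ libraries. The part of these markers was not tested.

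Most claudins differed between adult and E13.5 Lgr5+ cells. Of 9 claudins tested, 4 were higher in adult cells (Cldn2, Cldn3, Cldn12 and Cldn15), 4 were lower (Cldn4, Cldn6, Cldn8 and Cldn23), and Cldn7 was not called. Among 13144 genes, 18.6% were called higher and 17.3% lower (35.9% in either direction), and the median log2 fold change was -0.11 over the claudins and 0.02 over all genes. The 2 pore-forming members were both among the higher ones, and the fetal member Cldn6 averaged 0.948 ± 0.108 CPM in adult and 452 ± 42.1 CPM in E13.5 cells (SD, n = 4 each).

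Promoter sequences of Cldn6, Cldn2 and Cldn15 are shown because these genes were among the 4 with the largest fold changes, all of them 4.51 or more in size on the log2 scale, and because Id2 acts on factors that bind E-boxes. The other of the 4 was Cldn8, for which no sequence is shown. They are RefSeq sequences on GRCm38.p6, from 250 bases before the annotated start of transcription to 50 bases from it, on the strand of the gene, which is the plus strand for all 3. Capitals mark CANNTG (the E-box, the same read on both strands) and, on either strand, TTTATG (a core bound by CDX factors) and TATAAA (the TATA box). The windows are chr17:23679115-23679414 for Cldn6, chrX:139800558-139800857 for Cldn2 and chr5:136967619-136967918 for Cldn15.
Cldn6: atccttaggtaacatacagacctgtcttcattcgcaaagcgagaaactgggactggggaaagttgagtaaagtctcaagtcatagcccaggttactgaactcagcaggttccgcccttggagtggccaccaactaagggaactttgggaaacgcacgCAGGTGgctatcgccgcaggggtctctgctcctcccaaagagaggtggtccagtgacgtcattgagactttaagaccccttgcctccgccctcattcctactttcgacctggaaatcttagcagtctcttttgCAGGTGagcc
Cldn2: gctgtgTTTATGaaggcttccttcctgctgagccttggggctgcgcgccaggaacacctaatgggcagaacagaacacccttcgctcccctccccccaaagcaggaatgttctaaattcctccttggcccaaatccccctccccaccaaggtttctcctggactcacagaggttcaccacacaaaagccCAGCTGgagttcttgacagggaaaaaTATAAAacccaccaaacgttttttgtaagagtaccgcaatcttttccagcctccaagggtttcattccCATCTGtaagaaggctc
Cldn15: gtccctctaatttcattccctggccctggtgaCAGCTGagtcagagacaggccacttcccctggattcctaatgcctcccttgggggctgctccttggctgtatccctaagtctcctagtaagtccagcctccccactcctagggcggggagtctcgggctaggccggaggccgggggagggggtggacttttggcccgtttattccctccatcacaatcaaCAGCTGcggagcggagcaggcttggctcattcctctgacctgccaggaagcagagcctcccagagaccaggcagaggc

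The Cldn6 window held 2 E-boxes, both CAGGTG, at 93 bases before and at position 41 after the start. The Cldn2 window held CAGCTG at 61 bases before and CATCTG at position 34 after the start, with TTTATG at 244 bases before and TATAAA at 35 bases before it. The Cldn15 window held CAGCTG at 218 and at 28 bases before the start. Such letters are common: of 32817 promoters of the same length, 72.3% held CANNTG, 16.3% CAGCTG, 20.2% CAGGTG or its reverse complement, 11.9% TTTATG and 13.6% TATAAA, each searched on both strands. CAGCTG and CAGGTG are themselves cases of CANNTG. Of the 10 claudins 8 had an entry, with 11 windows in all, and Cldn8 and Cldn23 had none. The other windows held 1 CANNTG for Cldn3, 2 for Cldn1, 3 for Cldn4, 0 and 4 in the 2 windows of Cldn7 and 0 in all 3 of Cldn12. A GATA core, AGATAA, was in 0 of the 11 windows and in 11.2% of all promoters. These matches describe the letters only.

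Cldn6 had 1.1, 0.876, 0.868 and 0.949 CPM in adult Lgr5+ libraries and 406, 477, 498 and 429 CPM in E13.5 Lgr5+ libraries, a log2 fold change of -8.82 ± 0.20 (SE, adjusted p = 1.2e-10, edgeR, n = 4 each). All adult libraries still held 27 to 31 reads of it. Cldn15, a sodium channel of the small intestine, had 324, 378, 391 and 428 CPM in adult Lgr5+ libraries and 1.78, 0.254, 0.322 and 1.88 CPM in E13.5 Lgr5+ libraries (8.58 ± 0.63, adjusted p = 2.3e-06, edgeR). Cldn2, the cation and water pore of crypts, had 162, 162, 162 and 182 CPM in adult Lgr5+ libraries and 7.93, 11.3, 5.28 and 6.55 CPM in E13.5 Lgr5+ libraries (4.51 ± 0.24, adjusted p = 3.9e-08, edgeR). For all 3 genes the stages were separated by more than an order of magnitude.

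Cldn8, Cldn4 and Cldn23 were lower in adult cells. Cldn8 had 14.6, 17.7, 8.87 and 5.83 CPM in adult Lgr5+ libraries and 242, 321, 354 and 353 CPM in E13.5 Lgr5+ libraries (-4.66 ± 0.36, SE, adjusted p = 1e-06, edgeR). Cldn4 had 64.2, 35.3, 17.1 and 34.0 CPM in adult Lgr5+ libraries and 81.9, 198, 165 and 166 CPM in E13.5 Lgr5+ libraries (-1.94 ± 0.37, adjusted p = 0.0014, edgeR). The lowest library of the E13.5 group and the highest of the adult group lay close together for Cldn4. Cldn23 had 70.9, 42.0, 21.3 and 17.5 CPM in adult Lgr5+ libraries and 60.2, 121, 98.2 and 103 CPM in E13.5 Lgr5+ libraries (-1.24 ± 0.40, adjusted p = 0.029, edgeR). Its groups overlapped, and it was not called without the filter on low counts (adjusted p = 0.074) or without 5 of the 8 libraries in turn (adjusted p = 0.055 to 0.074).

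Cldn3 had 536, 619, 414 and 383 CPM in adult Lgr5+ libraries and 126, 324, 224 and 198 CPM in E13.5 Lgr5+ libraries (1.26 ± 0.27, SE, adjusted p = 0.0028, edgeR). Every adult library lay above every fetal one. Cldn12, which has been tied to calcium uptake in intestinal cells, had 45.1, 23.8, 30.4 and 44.7 CPM in adult Lgr5+ libraries and 11.9, 23.1, 18.7 and 23.6 CPM in E13.5 Lgr5+ libraries (0.97 ± 0.30, adjusted p = 0.023, edgeR). That gap was slim, and it was lost without 4 of the 8 libraries in turn (adjusted p = 0.051 to 0.062). Cldn7 was not called, with 384, 369, 325 and 408 CPM in adult Lgr5+ libraries and 287, 643, 388 and 388 CPM in E13.5 Lgr5+ libraries, a difference of -0.11 ± 0.21 with a 95% interval of -0.56 to 0.34.

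**Figure D4:**
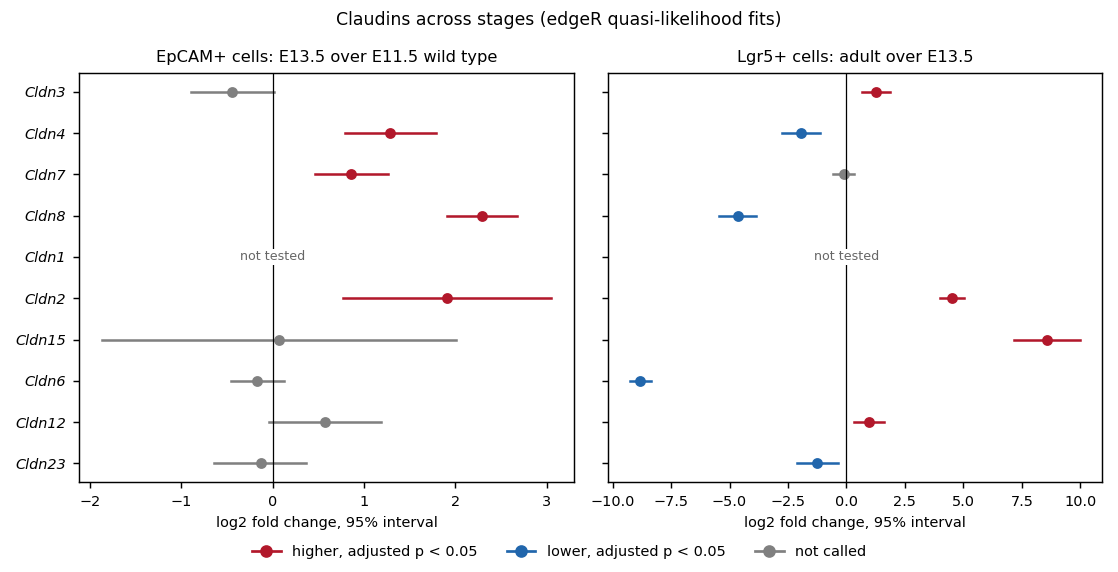
Log2 fold changes of the claudins with their 95% intervals, for EpCAM+ cells of E13.5 over E11.5 wild type on the left and for Lgr5+ cells of adults over E13.5 on the right. Cldn8 stands at 2.29 on the left and -4.66 on the right, and Cldn15, Cldn2 and Cldn6 stand at 8.58, 4.51 and -8.82 on the right.

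Of 25 tight junction partners tested, 4 were higher in adult Lgr5+ cells, 8 were lower and 13 were not called. Mpdz, a multi-PDZ scaffold that binds claudin tails, averaged 0.284 ± 0.142 CPM in adult and 21.6 ± 3.40 CPM in E13.5 Lgr5+ cells (SD, n = 4 each; -6.18 ± 0.50, SE, adjusted p = 1.7e-06, edgeR). Cgn averaged 118 ± 3.62 CPM in adult and 273 ± 21.4 CPM in E13.5 Lgr5+ cells (-1.13 ± 0.14, adjusted p = 5.1e-05, edgeR). Tjp3 was among the higher ones, with 31.0 ± 6.63 CPM in adult and 5.96 ± 2.24 CPM in E13.5 Lgr5+ cells (2.47 ± 0.34, adjusted p = 0.00014, edgeR). Of 21 transcription factors, 7 were higher and 1 lower. The vitamin D receptor gene Vdr, a known regulator of Cldn2 and Cldn12 in the intestine, averaged 279 ± 50.4 CPM in adult and 0.546 ± 0.596 CPM in E13.5 Lgr5+ cells (8.98 ± 0.59, adjusted p = 7.9e-07, edgeR). The caudal factor gene Cdx1 averaged 64.3 ± 12.0 CPM in adult and 14.9 ± 5.26 CPM in E13.5 Lgr5+ cells (2.20 ± 0.27, adjusted p = 6e-05, edgeR).

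Markers of other cell types differed between these groups as well. The 8 mesenchymal markers summed to 0.527 to 2.20 CPM in adult Lgr5+ libraries and 334 to 479 CPM in E13.5 Lgr5+ libraries, the 6 Paneth markers to 353 to 579 CPM in adult and 0.137 to 1.51 CPM in E13.5 libraries, and the 6 enterocyte markers to 595 to 3587 CPM in adult and 75.2 to 150 CPM in E13.5 libraries. One mesenchymal and 1 Paneth marker were at 0 in all E13.5 Lgr5+ libraries. The 6 epithelial markers summed to 4471 to 5572 CPM in adult and 2004 to 2606 CPM in E13.5 Lgr5+ libraries. For the 6 stem cell markers the sums were 6416 to 6761 CPM and 169.5 to 188.2 CPM in that order. Those of the 6 goblet markers were 320.6 to 545.5 CPM and 10.7 to 29.2 CPM, with Clca3 at 0 at E13.5. The mesothelial sum was also higher in adult cells, and the erythroid, enteric neural crest and enteroendocrine sums were lower. Nearly all of the mesenchymal sum at E13.5 was Vim, at 306 to 452 CPM. The part of these markers in the claudin values was not tested. Reads counted to no gene were 52.8% to 59.7% in adult Lgr5+ libraries and 45.7% to 51.6% in E13.5 libraries. Here too, stage and library set cannot be told apart.

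Before the adult segments are compared, the placing of the wild-type libraries needs to be given, because genes known to mark position along the small intestine went against the labels of 2 groups. Fabp6, the ileal bile acid binding protein, had 630 and 238 CPM in the wild-type libraries labelled middle, against 0.294 and 0.473 CPM in those labelled posterior. In the libraries labelled Id2KO it had 0.159 and 0.659 CPM in the middle group and 3.80 and 22.8 CPM in the posterior group. Gata4, which marks the proximal intestine and is lost in the ileum, had 22.2 and 7.68 CPM in wild-type libraries labelled middle and 95 and 98.3 CPM in those labelled posterior. In the libraries labelled Id2KO the order was the reverse, with 131 and 169 CPM in the middle group and 35.9 and 37.2 CPM in the posterior group. Onecut2 and Bex4 were placed like Gata4 and like Fabp6. Each comparison that uses these libraries is therefore given as labelled and again with the middle and posterior labels of wild type exchanged, and a further comparison uses the mean of both segments, which the exchange does not alter. These genes, the exchange and the mean were chosen after the values were seen.

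Under the labels as given, Cldn8 differed most between genotypes. It had 18.9 and 13.5 CPM in middle libraries labelled Id2KO and 93.9 and 83 CPM in middle wild-type libraries, a log2 fold change of -2.48 ± 0.23 (SE, adjusted p = 7.8e-05, edgeR, n = 2 each). In the posterior part it had 30.9 and 28.5 CPM in libraries labelled Id2KO and 25 and 28.6 CPM in wild type (0.13 ± 0.22, adjusted p = 0.81, edgeR). In the anterior part it had 11.9 and 14.4 CPM in libraries labelled Id2KO and 11.7 and 15.0 CPM in wild type (-0.03 ± 0.23, adjusted p = 0.98, edgeR). The wild-type middle pair alone stood high, and the genotype difference there was apart from that of the anterior part by -2.45 ± 0.32 (adjusted p = 0.0056, edgeR, 0.581% of 13436 genes called) and from that of the posterior part by -2.61 ± 0.32 (adjusted p = 0.00082, edgeR, 2.31% called).

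With the wild-type labels exchanged, Cldn8 read differently. The middle difference was -0.77 (adjusted p = 0.068) and the posterior difference turned to -1.58 (adjusted p = 0.003). The contrast of middle and anterior was then -0.75 (adjusted p = 0.24), and that of middle and posterior turned to 0.81 (adjusted p = 0.56). Id2 in the posterior part was then no longer called (0.39, adjusted p = 0.43). Over the mean of both segments, Cldn8 was lower in libraries labelled Id2KO by 1.17 ± 0.16 on the log2 scale (adjusted p = 0.00088, edgeR). Each genotype had 2 middle and 2 posterior libraries there. The labels do not say whether same-numbered libraries of different segments came from the same animal. The fit took all libraries as independent. The segment in which Cldn8 differed thus depends on the labels of 4 libraries. Its lower mean over both segments does not, but that mean does not match the genotypes for position along the gut. The wild-type pair labelled middle averaged 88.5 CPM of Cldn8 and had 630 and 238 CPM of the ileal gene Fabp6. In middle and posterior libraries labelled Id2KO, Fabp6 reached at most 22.8 CPM. Genotype and gut position therefore cannot be told apart in that mean.

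**Figure D5:**
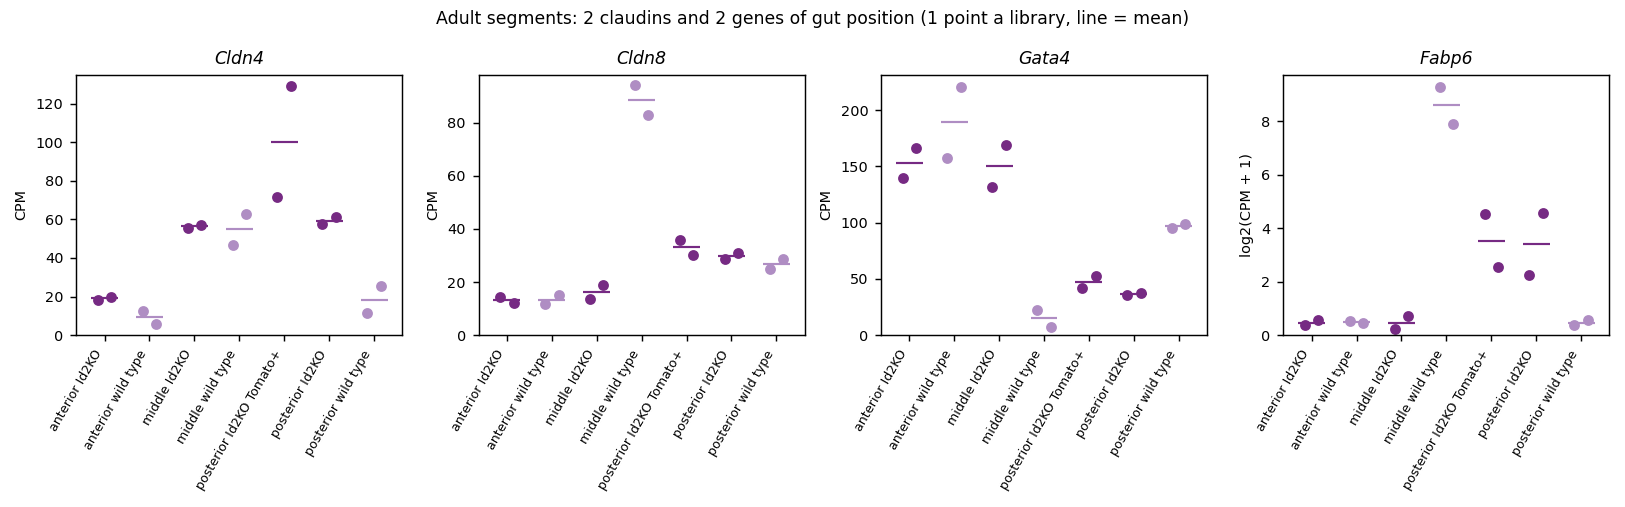
Levels of Cldn4, Cldn8 and Gata4 in CPM and of Fabp6 as log2(CPM + 1) in adult Lgr5+ libraries by labelled segment, with libraries labelled Id2KO left of wild type and 1 point for each library. Cldn8 and Fabp6 are highest in the wild-type pair labelled middle, where Gata4 is lowest.

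In the middle part 3 of 9 claudins tested were lower in libraries labelled Id2KO and 0 higher, where 2.28% of 13436 genes were called lower and 1.63% higher (3.91% in either direction). The median log2 fold change was -0.28 over the 8 claudins with reads in both groups and 0.01 over all genes. Beside Cldn8 these were Cldn3, with 803 and 883 CPM in libraries labelled Id2KO and 1079 and 1096 CPM in wild type (-0.40 ± 0.10, SE, adjusted p = 0.043, edgeR), and Cldn15, with 618 and 618 CPM in libraries labelled Id2KO and 761 and 794 CPM in wild type (-0.36 ± 0.08, adjusted p = 0.033, edgeR). Both differences were modest and neither pair overlapped. Beside these calls, the 6 Paneth markers summed to 19.2 to 48.5 CPM in middle libraries labelled Id2KO and 736 to 1144 CPM in middle wild-type libraries, and the 6 epithelial markers to 9093 to 10150 CPM in libraries labelled Id2KO and 13200 to 14090 CPM in wild type. The 6 stem cell markers summed to 18830 to 18880 CPM in middle libraries labelled Id2KO and 12340 to 13700 CPM in middle wild-type libraries, and the 6 enteroendocrine markers to 98.7 to 157 CPM in libraries labelled Id2KO and 42.6 to 53.7 CPM in wild type. No marker of these 4 lists was at 0 in both libraries of a group, and their part was not tested. With the wild-type labels exchanged neither passed (-0.35, adjusted p = 0.063 for Cldn3 and -0.25, adjusted p = 0.11 for Cldn15), while Cldn4 did (1.56, adjusted p = 0.039). Under the labels as given, leaving out 1 library ended the Cldn3 call for 10 of the 14 libraries of the fit (adjusted p = 0.058 to 0.26) and the Cldn15 call for 6 of them (adjusted p = 0.055 to 0.21). Over the mean of both segments Cldn3 was lower by 0.30 ± 0.07 (adjusted p = 0.023, edgeR), a call lost without any 1 of 5 libraries (adjusted p = 0.057 to 0.088), and Cldn15 missed the threshold (-0.21 ± 0.06, adjusted p = 0.051, edgeR), where 4.23% of 13436 genes were called lower and 4.25% higher (8.48% in either direction).

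In the posterior part Cldn4 was the 1 claudin of 9 called, where 2.55% of 13436 genes were called higher and 2.6% lower (5.16% in either direction). The median was 0.04 over the 8 claudins with reads in both groups and 0.01 over all genes. Cldn4 had 61.4 and 57.4 CPM in posterior libraries labelled Id2KO and 11.5 and 25.2 CPM in posterior wild-type libraries (1.67 ± 0.39, SE, adjusted p = 0.028, edgeR). The call was lost without either posterior library labelled Id2KO or the first wild-type one (adjusted p = 0.071 to 0.17). In the middle part it had 57.3 and 55.5 CPM in libraries labelled Id2KO and 46.6 and 63.0 CPM in wild type (0.01 ± 0.37, adjusted p = 1, edgeR). With the wild-type labels exchanged the posterior difference was 0.11 (adjusted p = 0.95), and over the mean of both segments Cldn4 was higher by 0.84 ± 0.27 without passing (adjusted p = 0.075, edgeR). Several marker lists lay apart between the same groups. The 6 goblet markers summed to 2579 to 2772 CPM in posterior libraries labelled Id2KO and 320 to 374 CPM in posterior wild-type libraries. None of them was at 0 in both libraries of either group. For the 6 stem cell markers the sums were 12550 to 14200 CPM and 17150 to 17960 CPM in that order. Those of the 6 epithelial markers were 11130 to 12410 CPM and 9829 to 10110 CPM. The 6 enterocyte markers gave 196.8 to 221.5 CPM and 298.3 to 455.3 CPM. Sums of the mesenchymal, endothelial and enteric neural crest markers, none over 11.1 CPM, lay apart as well. The part of these lists was not tested.

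In the anterior part, where Gata4 was high in both genotypes (140 and 167 CPM in libraries labelled Id2KO, 158 and 221 CPM in wild type), 0 of 9 claudins were called in edgeR and 0 in DESeq2, and 1 had an unadjusted p under 0.05, where 0.804% of 13436 genes were called higher and 0.7% lower (1.5% in either direction). That 1 was Cldn4, with 20.01 and 18.1 CPM in libraries labelled Id2KO and 12.6 and 5.72 CPM in wild type (1.06 ± 0.40, adjusted p = 0.26, edgeR). Without the filter on low counts it was called, at 1.08 (adjusted p = 0.00045). The median was 0.08 over the 8 claudins with reads in both groups and -0.01 over all genes.

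Along the gut, Cldn8 was higher in the posterior than in the anterior part in either genotype. In libraries labelled Id2KO it had 30.9 and 28.5 CPM in the posterior part and 11.9 and 14.4 CPM in the anterior part (1.17 ± 0.23, SE, adjusted p = 0.017, edgeR), and it was the 1 claudin of 9 called, where 1.03% of genes were called higher and 0.968% lower (2% in either direction). In wild type it had 25 and 28.6 CPM in the posterior part and 11.7 and 15.0 CPM in the anterior part (1.01 ± 0.23, adjusted p = 0.028, edgeR), again the 1 claudin called, where 1.78% of genes were called higher and 3.03% lower (4.81% in either direction). With the wild-type middle libraries in place of the posterior ones, that gap was 2.72 (adjusted p = 3.7e-05), and Cldn4 (2.58, adjusted p = 0.0029) and Cldn7 (0.37, adjusted p = 0.022) were called too. Leaving out any 1 library of either pair ended the Cldn8 call, with an adjusted p of 0.067 to 0.16 in libraries labelled Id2KO and 0.06 to 0.14 in wild type.

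Cldn4 followed the same line in libraries labelled Id2KO, with 61.4 and 57.4 CPM in the posterior part and 20.01 and 18.1 CPM in the anterior part, but its 1.63 ± 0.39 just missed the threshold (adjusted p = 0.052, edgeR) and passed in DESeq2 (1.62, adjusted p = 0.0016). With these 2 groups fitted alone Cldn4 was called (1.62, adjusted p = 0.0083) and Cldn8 was not (1.16, adjusted p = 0.067). Between Tomato+ posterior cells and the other posterior cells labelled Id2KO, with 2 libraries each, no claudin was called. No gene of 13436 was called in edgeR (0%), 358 had an unadjusted p under 0.05 with 0 claudins among them, and DESeq2 called 1 gene, which was no claudin. Without the filter on low counts edgeR called 66 genes. Cldn8 had 35.8 and 30.3 CPM in Tomato+ libraries and 30.9 and 28.5 CPM in the others (0.16 ± 0.22, with a 95% interval of -0.32 to 0.64), and Cldn4 had 71.6 and 129 CPM in Tomato+ libraries and 61.4 and 57.4 CPM in the others (0.76 ± 0.37, -0.05 to 1.57).

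Cldn2 stood between 221 and 295 CPM in all 14 segment libraries and was called in none of the segment comparisons. Cldn7, at 1364 to 1893 CPM, Cldn12, at 99.2 to 166 CPM, and Cldn23, at 27.5 to 83.1 CPM, were called in none of them either in edgeR with all libraries and the labels as given. Other settings called Cldn7 higher in the posterior than in the anterior part of wild type (0.32, adjusted p = 0.0033 in DESeq2, 0.049 with RLE factors and 0.038 without the filter on low counts) and Cldn23 lower in middle libraries labelled Id2KO (-0.72, adjusted p = 0.016 without the filter). Leaving out 1 library called Cldn7 in that same contrast without the first anterior wild-type library (0.4, adjusted p = 0.03) or the first posterior one labelled Id2KO (0.33, adjusted p = 0.04), and Cldn12 between the posterior genotypes without the second wild-type library (0.64, adjusted p = 0.048). Cldn6 was at 0 in 10 of those 14 libraries, and the highest value, 3.95 CPM, came from 1 middle library labelled Id2KO whose partner had 0, so no fold is given for it. The segment libraries held 0 CPM of Ddx3y, where the adult Lgr5+ libraries held 167 to 237 CPM, and its part in the level of the X-linked Cldn2 was not tested.

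As a description of likeness, the profile of each claudin over the 15 group means was set beside those of 11294 genes that reached 10 CPM in some group, by Pearson's correlation of log2(CPM + 1). The points share libraries, stages and depth. Cldn3 was most like Cnksr1 (r = 0.996), Lad1 (0.995) and Epcam (0.994), and Cldn7 was most like Tpd52 (0.995), Hnf4g (0.992) and Cnksr1 (0.991). Cldn6 was most like Serpina1a (0.994), Afp (0.993) and Serpina1d (0.992), which are also liver genes, and the 4 hepatocyte markers summed to 190 to 285 CPM in E13.5 Lgr5+ libraries and 662 to 757 CPM in E13.5 EpCAM+ libraries. Cldn2 was most like Ceacam1 (0.997) and Car9 (0.996), Cldn15 like Slc14a1 (0.996) and Far2 (0.992), and Cldn23 like Foxa1 (0.993) and Crb3 (0.985).

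Profiles less like those of any other gene were those of Cldn4, with Tnfrsf12a at 0.967, and Cldn8, with Cyp2c68 at 0.965. Among the claudins themselves, Cldn3 and Cldn7 ran closest together (r = 0.99 over 15 group means). Cldn4 went with Cldn23 (0.94) and Cldn8 (0.91), and Cldn2 with Cldn15 (0.94). Cldn6 and Cldn15 were opposed (-0.87).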

How the data were processed

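RNA was sequenced as single-end reads of 50 bases after SMARTer amplification over 15 cycles, per the labels' protocols. The authors deposited raw counts per gene, 23366 genes and 5 category rows in each of 41 tables. Tools in the submitters' processing notes are HTSeq 0.6.1p1 and DESeq2 1.6.3, with SAMtools 1.2, bcl2fastq 1.8.4 and the aligner STAR 2.3.1z13, on the build mm9. What each did, the annotation and the strand setting are not given in the sources used here. Category rows, 20.5% to 59.7% of all counts, were left out.

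CPM were computed over gene counts, and CPM per kb with union exon lengths of GENCODE vM21. Tests were run over all genes with edgeR 4.0.16 (limma 3.58.1, R 4.3.3) after TMM scaling and filterByExpr, with robust quasi-likelihood fits and Benjamini-Hochberg adjustment; a call is an adjusted p under 0.05. There were 7 fits. The 3 epithelial groups of E11.5 shared a fit, as did the 7 groups of adult segments, which left out the adult Lgr5+ group. EpCAM+ cells and mesenchyme of E11.5 were compared in a fit of their 4 groups, without the Lgr5+ group. Every other comparison was fitted on the compared groups alone. The 14 comparisons and 4 tests of differences between them were each repeated with DESeq2 1.42.0, RLE factors, plain totals and no filter. Each was also repeated with a replicate block and without each library. Comparisons from fits that held further groups were repeated with the compared groups alone, but the 4 tests of differences were not. The code was tested on simulated data. SE is the log2 fold change over the root of F. CPM of 0 counts allow up to 3 counts per library, and such limits cover counting error only, since reads carried no molecular identifiers.

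The members and the gene lists were chosen with earlier results of these data known. All 10 members were followed in every comparison, with Id2 and, of each list, up to 4 called genes with the smallest p. Replicate numbers were taken to pair samples where each pair's deviations correlated above 0.1: in the Id2KO embryos of E11.5, between Lgr5+ and EpCAM+ cells (0.431, 0.506, 0.259) and between EpCAM+ cells and mesenchyme (0.245, 0.416, 0.153). The fits as reported held no block, also in these paired comparisons, and the block was a separate setting. Sequences are from RefSeq on GRCm38.p6.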

Additional observations from a re-analysis of the deposited data

Results flagged for a closer look

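The values below stood apart by fixed rules, and none is given an explanation. Over 29 sets of 4 values, each 1 claudin in 1 group of 4 libraries, 2 held a library far from the other 3. Chance gives about 1 in 20 sets only if the values are normally distributed, which was not tested. Cldn1 had 0.519 CPM in 1 Lgr5+ library of E13.5, and 0 counts in the other 3. With 3 libraries at 0 any other value meets the rule, so the chance rate does not apply to Cldn1. Cldn2 had 182 CPM in 1 adult Lgr5+ library, while the other 3 lay between 161.9 and 162.3 CPM.

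Cldn8 in adult Lgr5+ cells had a genotype difference that itself differed between segments, by -2.45 between the middle and the anterior part and by -2.61 between the middle and the posterior part (log2, edgeR, adjusted p = 0.0056 and 0.00082). Both rest on the 2 wild-type libraries labelled middle, in which Fabp6 and Gata4 went against the label. With the wild-type middle and posterior labels exchanged, the values were -0.75 and 0.81 and did not pass.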

How the results depend on the processing

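With 2 libraries per adult group, 1 library decides many calls. Genes called moved by over 1.5 times as follows, each against the number in the fit as reported. With DESeq2, EpCAM+ Id2KO against wild type at E11.5 gave 727 against 251, Lgr5+ Id2KO against EpCAM+ Id2KO 1146 against 476, mesenchyme 293 against 121, and Lgr5+ against EpCAM+ at E13.5 466 against 234. In adults DESeq2 gave 550 against 202 in the anterior, 1132 against 526 in the middle and 1318 against 693 in the posterior part between genotypes, 1549 against 646 for posterior over anterior in wild type, 544 against 269 in Id2KO, and 1 against 0 for Tomato+. No filter on low counts gave 766, 1302, 1447, 1654, 675 and 66 for the same 6 adult comparisons. The compared groups alone gave 119 at E11.5, and 44, 340 and 47 for the anterior, the middle and the wild-type posterior over anterior comparison. The exchange of wild-type labels gave 194 in the posterior part.

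Claudins called at E11.5 between genotypes of EpCAM+ cells were 1 as reported, 2 with DESeq2, 0 with the groups alone and 0 without libraries over 100 CPM of C1qa. At E13.5 they were 0 as reported, 2 with DESeq2 and 1 with the replicate block. In the anterior part they were 0 as reported and 1 without a filter, and in the middle part 3 as reported, 1 with the groups alone and 1 with the exchange. For wild-type posterior over anterior they were 1 as reported, 2 with RLE factors, 3 each with DESeq2, without a filter and with the exchange, and 0 alone. In Id2KO they were 1 as reported (Cldn8), 1 with the groups alone (Cldn4) and 2 with DESeq2 or without a filter. The exchange turned Cldn8 to -1.58 in the posterior part and its contrast of middle and posterior to 0.81, and gave -0.75 for its contrast of middle and anterior. The cause of these shifts was not tested.

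Without 1 library at a time, genes called were 77 to 301 (EpCAM+ Id2KO against wild type), 215 to 554 (Lgr5+ Id2KO against EpCAM+ Id2KO), 64 to 127 (mesenchyme), 2601 to 3609 and 3015 to 3655 (EpCAM+ against mesenchyme in wild type and Id2KO), 157 to 218 (E13.5 sorts), 4656 to 5811 (E13.5 against E11.5), 3954 to 4607 (adult against E13.5), 74 to 317, 177 to 617 and 183 to 792 (anterior, middle and posterior genotypes), 34 to 1465 and 129 to 289 (posterior over anterior, wild type and Id2KO) and 0 to 1 (Tomato+). Claudins called, in the same order, were 0 to 1, 1 to 1, 0 to 0, 7 to 8, 8 to 9, 0 to 0, 4 to 5, 6 to 8, 0 to 0, 1 to 3, 0 to 2, 0 to 3, 0 to 2 and 0 to 0. The Cldn8 contrasts of segments ranged from -2.74 to -2.25 and from -2.86 to -2.37, and the mean over both segments from -1.31 to -1.06 for Cldn8 and -0.37 to -0.23 for Cldn3.

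Plain totals moved the share of higher calls to 42.3% (52.6% as reported) between EpCAM+ genotypes, 30.8% (3.31%) in mesenchyme and 77.8% (52%) between wild-type EpCAM+ cells and mesenchyme, where the median of all genes was 0.38 in mesenchyme. With the replicate block in the 2 paired comparisons, 1 and 8 claudins were called, as reported. Elsewhere there were under 3 same-numbered pairs (adult segments) or not every pair correlated above 0.1, and the miss was narrow at E13.5, where Lgr5+ and EpCAM+ libraries gave 0.097, 0.467, 0.231 and 0.274. Each Lgr5+ library there correlated best with its own number, but the third EpCAM+ library with the fourth Lgr5+ one (0.257), a hint from the data and not the design. In these comparisons the block ended the calls of Cldn12 in adult against E13.5 cells (0.97, adjusted p = 0.054) and of Cldn3 in the middle part (-0.40, adjusted p = 0.053) and added that of Cldn4 at E13.5 (-0.85, adjusted p = 0.024).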
